A study of Mus musculus with 27 samples.

Results

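Bone marrow was compared with spleen by the levels of glycan-related, immune and growth factor transcripts in whole tissue. The comparison used 6 of the 27 arrays of the series: 3 bone marrow arrays and 3 spleen arrays, taken by the tissue given in their labels. Both groups were from male wild-type mice of the inbred strain C57BL/6 at an age of 6 to 8 weeks, and no other agent or allele was named. The series' design text says that the marrow was taken from femurs. RNA was hybridised to a custom Affymetrix array that covers genes for glycan synthesis, breakdown and binding and also carries immune and growth factor genes. The comparison covers 573 mouse genes, with 1 probe set for each. Whether the 3 arrays of 1 tissue stand for 3 animals is not stated, and the p-values below therefore reflect array to array spread, which may be technical.

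Bone marrow is the main site of blood cell formation in the adult mouse and holds large numbers of maturing granulocytes and monocytes beside precursors of the red cell, platelet and B cell lineages. The spleen filters blood in its red pulp, and its white pulp is organised into B cell follicles and T cell zones. Stromal cells of the white pulp make the chemokines that place lymphocytes, CXCL13 for follicles and CCL19 and CCL21 for T cell zones, and these act on the receptors CXCR5 and CCR7. In marrow, CXCL12 and stem cell factor, the product of Kitl, come from stromal cells that hold blood-forming cells in place, and CXCR2 and CXCR4 are known for opposed parts in the release of neutrophils.

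Of the 573 genes, 66 (11.5%) were called, that is, passed a Benjamini-Hochberg adjusted p of 0.05 in limma with a log2 difference, bone marrow minus spleen, of at least 1 in size. Of these, 17 (2.97% of all genes) were higher and 49 (8.55%) were lower in bone marrow. A difference of at least 4-fold was found for 5 of the higher and 20 of the lower genes. A further 118 genes passed the adjusted p with a smaller difference. In all 66 called genes the 3 bone marrow arrays lay wholly above or wholly below the 3 spleen arrays, as they did in 261 of all 573 genes (45.5%). The median difference over all genes was -0.06 and the median size was 0.23. Below, ± is the SD of 3 arrays beside a mean intensity and the SE beside a difference, which is on the log2 scale. With quantile normalization the median difference was 0.09, and 20 genes were higher and 35 lower (36.4% of calls higher, against 25.8% with values as deposited).

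**Figure D1:**
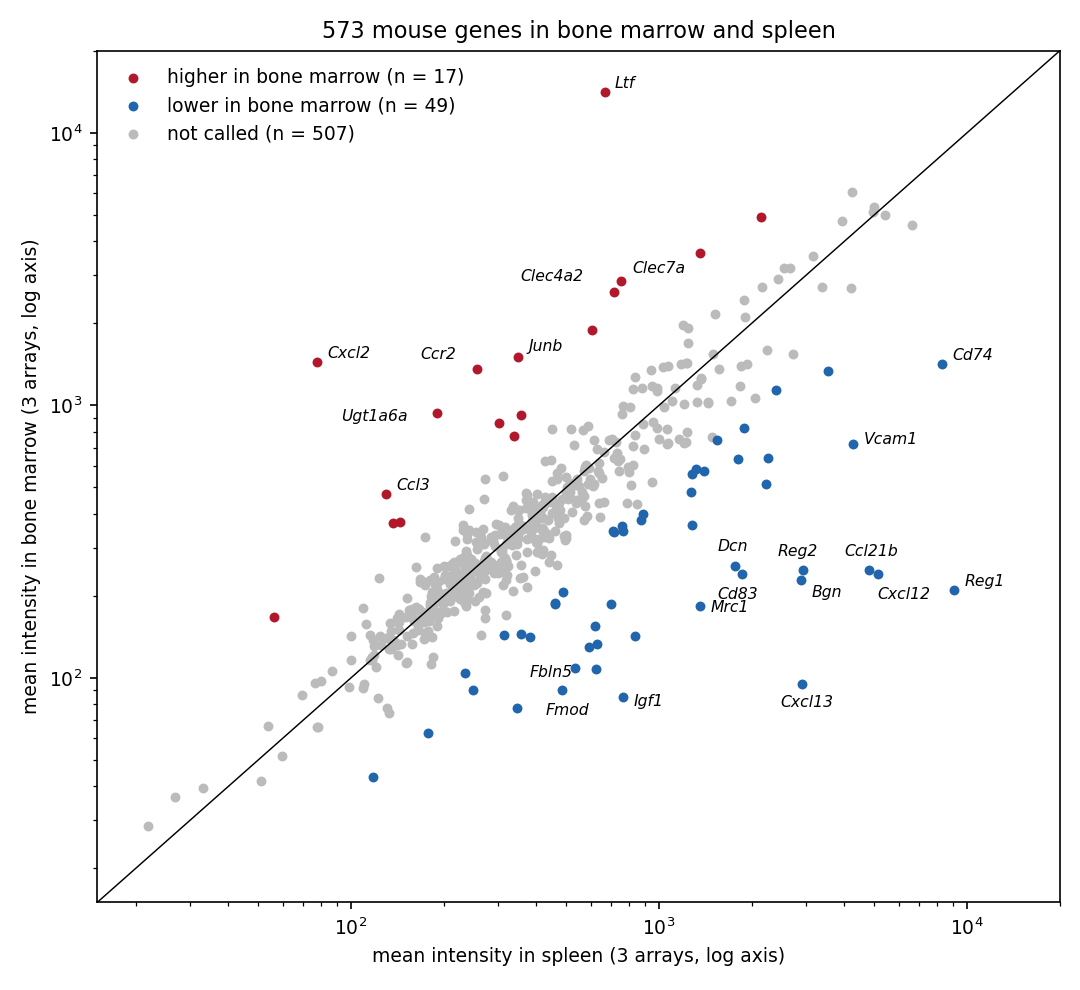
Mean intensity of 573 genes in bone marrow (vertical axis) against spleen (horizontal axis), 3 arrays each, both axes logarithmic, with the line of equal values. The 17 higher genes lie above the line with Ltf and Cxcl2 farthest from it, and the 49 lower genes lie below it with Reg1, Cxcl13 and Cxcl12 farthest.

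Pearson correlations of log2 values ran from 0.97 to 0.98 between bone marrow arrays and from 0.74 to 0.79 between a bone marrow and a spleen array. The array also carries human probe sets, which give a rough level of unspecific signal: over these 6 arrays their median was 203 and their 95th percentile 606. In 52 of the 66 called genes the tissue with the lower mean lay under 606, and in 27 under 203, so that those folds are not exact. Both tissues lay under 606 in 18 called genes. Since the tissues were measured in bulk, fewer cells of a type and less RNA per cell cannot be told apart.

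Ltf, Csf3r and Cxcr2, markers of maturing granulocytes, were higher in bone marrow. They were 3 of 7 measured neutrophil and granulocyte precursor markers, against 2.97% of all genes called higher, and 4 were not called. The list's median difference was 0.34, against -0.06 over all genes. The summed level of the list was 18823 to 21107 on the bone marrow arrays and 3701 to 4298 on the spleen arrays. Most of the bone marrow sum was Ltf alone, which averaged 14124 ± 802 there and 666 ± 379 in spleen. Ltf encodes lactoferrin, an iron-binding protein of the secondary granules of neutrophils. It read 14645, 14527 and 13201 on the bone marrow arrays and 518, 1097 and 383 on the spleen arrays. The groups lay far apart, although the spleen arrays themselves spread by more, as a ratio, than the bone marrow arrays did, and the difference was 4.55 ± 0.36, or 23.5-fold (limma adjusted p = 3.01e-10).

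Csf3r, the receptor for granulocyte colony-stimulating factor, read 1177, 2368 and 2129 in bone marrow and 617, 579 and 627 in spleen (1.58 ± 0.18, 2.98-fold, limma adjusted p = 1.29e-07). A second Csf3r probe set averaged 1428 in bone marrow and 77.8 in spleen, a difference of 4.10, and with both averaged the gene was 7.16-fold higher. Cxcr2, the neutrophil receptor for CXCL1 and CXCL2, read 665, 1209.7 and 881 in bone marrow and 404, 299 and 367 in spleen (1.33 ± 0.17, limma adjusted p = 8.37e-07). For all 3 of these genes bone marrow had the highest mean of the 9 tissues of the series. The other 4 markers were not called: Siglece (0.34), Siglecf (0.33), Cd33 (0.21) and Clec5a (0.12), which encode sialic acid-binding or C-type lectin receptors of myeloid cells.

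The largest difference among chemokine genes in favour of bone marrow was that of Cxcl2, which encodes a ligand of CXCR2 that draws neutrophils. Cxcl2 read 1013, 1691 and 1612 in bone marrow, against 69.4, 79.8 and 82.7 in spleen. The values lay far apart, at 4.19 ± 0.20 or 18.2-fold (limma adjusted p = 1.94e-14), and the spleen values lay under the median of the human probe sets. Bone marrow had the highest and spleen the lowest mean of the 9 tissues, and the other 7 tissues averaged between 77.5 and 104. Cxcl1, the neighbouring gene on chromosome 5 and another CXCR2 ligand, read 169.6, 157 and 174 in bone marrow and 165, 175 and 169.6 in spleen. The Cxcl1 arrays overlapped and lay under the human median in both tissues (-0.03 ± 0.27, limma adjusted p = 0.944), and Cxcl5, also a CXCR2 ligand, had a difference of -0.26 ± 0.14 (limma adjusted p = 0.173).

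Promoter sequences are shown for Cxcl2 and Cxcl1, which differ in these data while lying side by side, for Cxcl13, the chemokine gene with the largest difference in favour of spleen, and for Ltf, the gene with the largest difference in favour of bone marrow. Each runs from 250 bases before to 50 bases after the gene's start in RefSeq, build GRCm38.p6, plus strand: Cxcl2 at chr5:90903649-90903948, Cxcl1 at chr5:90890995-90891294, Cxcl13 at chr5:95956689-95956988 and Ltf at chr9:111019042-111019341. Capitals mark matches on either strand, in the chemokine genes to the NF-kappaB motif, searched as GGG, any 2 bases, then TTTCC, and in Ltf to the C/EBP motif TTNNGCAA.
Cxcl2: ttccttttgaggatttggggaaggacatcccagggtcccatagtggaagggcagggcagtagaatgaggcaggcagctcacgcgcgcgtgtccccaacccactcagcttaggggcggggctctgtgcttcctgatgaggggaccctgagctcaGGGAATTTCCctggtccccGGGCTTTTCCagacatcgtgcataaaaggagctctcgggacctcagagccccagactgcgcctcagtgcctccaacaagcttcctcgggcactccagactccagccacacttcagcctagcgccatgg
Cxcl1: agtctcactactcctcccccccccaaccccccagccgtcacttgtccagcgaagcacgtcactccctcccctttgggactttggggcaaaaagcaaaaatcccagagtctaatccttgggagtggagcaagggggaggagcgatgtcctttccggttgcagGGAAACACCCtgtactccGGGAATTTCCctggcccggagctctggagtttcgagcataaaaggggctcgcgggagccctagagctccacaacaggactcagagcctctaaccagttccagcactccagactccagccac
Cxcl13: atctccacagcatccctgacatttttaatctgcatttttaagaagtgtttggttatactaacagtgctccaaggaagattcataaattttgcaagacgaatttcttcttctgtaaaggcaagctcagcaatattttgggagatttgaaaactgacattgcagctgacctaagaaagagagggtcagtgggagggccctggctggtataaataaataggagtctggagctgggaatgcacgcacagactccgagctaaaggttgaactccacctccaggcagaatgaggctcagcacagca
Ltf: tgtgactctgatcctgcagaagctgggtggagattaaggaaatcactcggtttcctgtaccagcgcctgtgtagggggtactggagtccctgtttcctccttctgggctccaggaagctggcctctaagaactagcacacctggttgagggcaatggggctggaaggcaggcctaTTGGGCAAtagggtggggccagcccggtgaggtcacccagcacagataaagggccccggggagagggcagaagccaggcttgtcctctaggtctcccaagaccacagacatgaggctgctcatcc
Cxcl2 and Cxcl1 each held 2 NF-kappaB matches, Cxcl13 held none in this window and Ltf held 1 C/EBP match. The NF-kappaB letters occur in 1.63% of all 32851 RefSeq promoters of this length and in 4.05% of the 444 measured genes with a promoter in the table. Of the called genes, 15 higher and 34 lower ones had a promoter there, and the letters occur in 2 of the 15 (Cxcl2 and Ccl9) and in 1 of the 34 (Hs6st2). The C/EBP letters occur in 10.8% of all promoters and 12.4% of measured genes, in 2 of 15 higher and in 9 of 34 lower genes. The PU.1 letters AGGAAG and the TATA box TATAAA, found in 45.0% and 14.4% of measured genes, occur in 5 and 4 of 15 higher and in 15 and 10 of 34 lower genes. The STAT letters TTCNNNGAA, found in 9.91% of measured genes, occur in 3 of 15 higher and in 5 of 34 lower genes. A match is a description of letters and not of binding.

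Most measured monocyte markers were called, with 1 against the direction of the others. Of 6 measured monocyte and macrophage markers, 3 were higher and 1 was lower (median difference 1.39; 2.97% and 8.55% of all genes), with summed levels of 5968 to 8848 in bone marrow and 3330 to 3906 in spleen. Ccr2, the receptor by which monocytes leave the marrow, read 963, 1421 and 1695 in bone marrow and 272, 273 and 223 in spleen (2.38 ± 0.25, 5.20-fold, limma adjusted p = 3.13e-08). The groups did not overlap, and a second Ccr2 probe set had a difference of 2.74. Clec7a encodes dectin-1, the beta-glucan receptor, and read 1995, 3144 and 3447 in bone marrow and 703, 908 and 655 in spleen (1.90 ± 0.29, limma adjusted p = 1.2e-05). Clec4a2, an inhibitory C-type lectin of myeloid cells, read 2142, 2963 and 2731 in bone marrow and 946, 701 and 504 in spleen (1.90 ± 0.42, limma adjusted p = 0.000808).

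Mrc1, the macrophage mannose receptor, went the other way. It read 198, 103 and 248 in bone marrow and 1352, 1343 and 1387 in spleen, 7.92-fold lower in bone marrow (-2.98 ± 0.29, limma adjusted p = 8.73e-09). Spleen had the highest mean of the 9 tissues for Mrc1, with 3 arrays close together, while the bone marrow arrays spread and lay near the human median. The last 2 markers were not called: Cx3cr1, the fractalkine receptor, at 0.06 ± 0.10, and Clec4e at 0.89 ± 0.17. The second Clec4e probe set, which the rule of highest mean did not keep, averaged 1012 in bone marrow and 122 in spleen (2.83), and Clec4e was called higher with probe sets averaged (1.86), with median centring (1.02) and without bone marrow replicate 1 (1.01). Ligands for CCR2 were measured as well, Ccl7 at 0.17 ± 0.20 and Ccl12 at 0.04 ± 0.11, and neither was called.

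Among 29 measured chemokines, 4 were higher and 7 were lower in bone marrow, against 2.97% and 8.55% of all genes. Beside Cxcl2, the higher ones were Ccl3, Ccl4 and Ccl9, inflammatory CC chemokines of macrophages and granulocytes. Ccl3 read 381, 449 and 587 in bone marrow and 97.5, 172 and 120.1 in spleen (1.88 ± 0.20, limma adjusted p = 4.29e-08). Ccl4 averaged 369 ± 31.2 in bone marrow and 137 ± 14.2 in spleen (SD, n = 3 each), and Ccl9 373 ± 94.3 in bone marrow and 144 ± 8.70 in spleen. For these 3 genes bone marrow had the highest mean of the 9 tissues, yet both tissues lay under the 95th percentile of the human probe sets.

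Higher genes outside these groups had varied roles. Junb, an AP-1 transcription factor subunit, read 1150.3, 1640.1 and 1725 in bone marrow and 341, 407 and 301 in spleen (2.09 ± 0.20, 4.27-fold, limma adjusted p = 1.1e-08). Lta4h, which makes the neutrophil attractant leukotriene B4, averaged 3616 ± 412 in bone marrow and 1355 ± 64.3 in spleen (1.41 ± 0.18, limma adjusted p = 5.96e-07). Gpc1, the heparan sulfate proteoglycan glypican-1, averaged 769.5 ± 133 in bone marrow and 339 ± 28.9 in spleen (1.17 ± 0.12). Tnfrsf19, a receptor of the tumour necrosis factor family, averaged 168 ± 12.9 in bone marrow and 56.2 ± 6.83 in spleen (1.58 ± 0.23), both below the human median, and brain and lung exceeded both. Ugt1a6a, a UDP-glucuronosyltransferase whose probe set may bind transcripts of its Ugt1a relatives, averaged 939.8 ± 247 in bone marrow and 190.1 ± 13.9 in spleen, against 5567 ± 1282 in liver. Hmgn2, a nucleosome-binding protein named here after its values were seen, averaged 4907 ± 629.8 in bone marrow and 2140.2 ± 80.5 in spleen, with a mean of 4623 ± 772 in thymus.

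**Figure D2:**
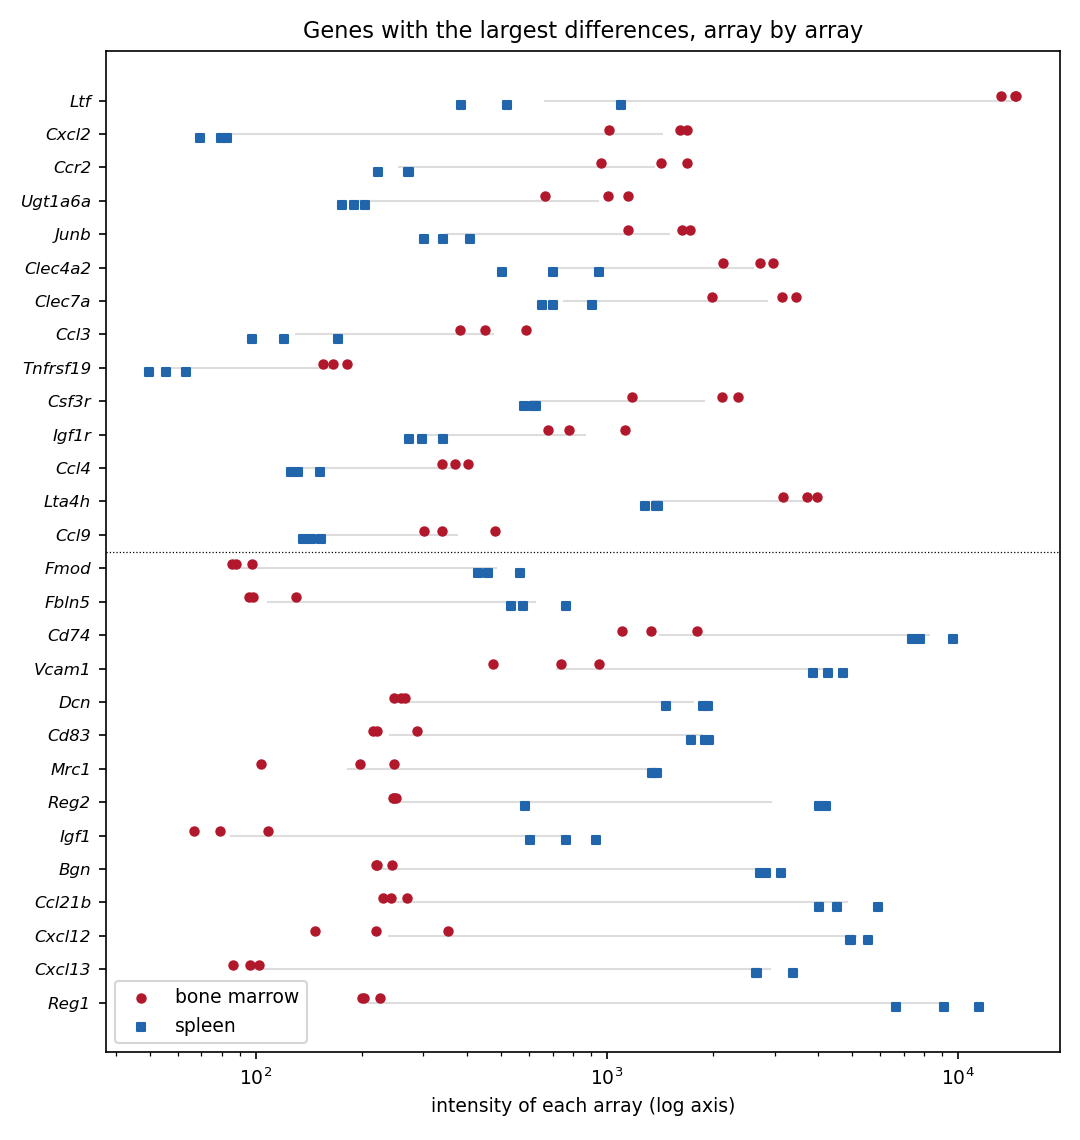
Intensity of each of the 3 bone marrow arrays (red circles) and 3 spleen arrays (blue squares) for the 14 higher and 14 lower genes with the largest differences, on a logarithmic axis, with a grey line between the 2 means. No gene shows overlap, since only called genes without overlap were eligible. Reg2 has 1 spleen array at 583, far from the other spleen arrays.

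Cxcl13 and Ccl21b, chemokine genes that place lymphocytes, and the genes of their receptors, Cxcr5 and Ccr7, were lower in bone marrow. Cxcl13, the B cell follicle chemokine, read 102, 96.3 and 85.8 in bone marrow and 3382, 2673 and 2659.7 in spleen. That is 30.5-fold lower (-4.93 ± 0.15, limma adjusted p = 5.99e-18), and brain, kidney and testis averaged 91.8 ± 3.65, 102 ± 7.97 and 119 ± 6.66. Its receptor gene Cxcr5 read 125, 138 and 128 in bone marrow and 611, 575 and 587 in spleen (-2.18 ± 0.11, limma adjusted p = 3.21e-14). Ccl21b, the T cell zone chemokine, read 270.1, 243 and 231 in bone marrow and 5919, 4014 and 4531 in spleen (19.2-fold lower, -4.26 ± 0.15, limma adjusted p = 1.17e-16). Its probe set may not separate the near-identical Ccl21 copies. Ccr7, the receptor for CCL21, read 392, 375 and 329 in bone marrow and 1355, 1261 and 1214 in spleen (-1.81 ± 0.13, limma adjusted p = 6.17e-11).

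Cxcl12, known from marrow stroma, was also lower in bone marrow than in spleen. It read 220.2, 147 and 353 in bone marrow and 5526, 4939.7 and 4920.4 in spleen. The groups were far apart (22.7-fold, -4.51 ± 0.20, limma adjusted p = 1.12e-14), and bone marrow had the lowest mean of the 9 tissues, below testis at 253 ± 17.6 and brain at 396 ± 62.4. Lymph node and thymus averaged 4349 ± 673 and 3309.8 ± 633. Kitl, named here after its values were seen, encodes stem cell factor and likewise had its lowest mean of the 9 tissues in bone marrow. It read 184, 140.1 and 142 in bone marrow and 823, 539 and 500.5 in spleen (-1.97 ± 0.16, limma adjusted p = 3.9e-10), while Kit, its receptor on progenitors, averaged 376 ± 11.3 in bone marrow and 386 ± 21.7 in spleen (-0.04 ± 0.13, limma adjusted p = 0.868).

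The other lower chemokines were named after their values were seen, except Pf4. Cxcl9 and Cxcl10, the interferon-induced ligands of CXCR3, had differences of -2.21 ± 0.17 and -1.90 ± 0.19 (limma adjusted p = 9.44e-11 and 1.39e-08). Cxcr3, the gene of their receptor, read 936, 830.1 and 705 in bone marrow and 934, 873 and 1140.2 in spleen, with overlapping arrays (-0.25 ± 0.15, limma adjusted p = 0.208). Ccl5, a chemokine of activated lymphocytes, had -1.81 ± 0.20 (limma adjusted p = 8.24e-08), and its second probe set -0.40. Of 16 measured chemokine receptors, 2 were higher, Ccr2 and Cxcr2, and 5 were lower, against 2.97% and 8.55% of all genes. Beside Cxcr5 and Ccr7 the lower ones were Ccr1l1 (-1.47 ± 0.20), Ccr6 (-1.29 ± 0.13) and Cxcr6 (-1.18 ± 0.17), the last 2 named after their values were seen.

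Some ligand and receptor pairs had both genes called. Of 33 pairs with both genes measured, 3 had both called in 1 direction and 1 had both called in opposite directions. A further 15 had 1 gene called and 14 had none. The pairs were assembled after values had been seen, and several share a gene, such as Cxcr2. Over all single genes 11.5% were called, and no such share was computed for pairs. Cxcl13 with Cxcr5 and Ccl21b with Ccr7 were lower, and Cxcl2 with Cxcr2 was higher. The opposed pair was Igf1 and Igf1r. Igf1, insulin-like growth factor 1, read 79.0, 66.7 and 109 in bone marrow and 928, 762 and 604 in spleen (9.07-fold lower, -3.18 ± 0.19, limma adjusted p = 2.19e-12). Igf1r, its receptor, read 782, 1129 and 679 in bone marrow and 297, 272 and 341 in spleen (1.48 ± 0.23, limma adjusted p = 8.88e-06). A second Igf1r probe set differed by 0.04, averaging 375 in bone marrow and 366 in spleen, and the call was lost when the probe sets were averaged (0.76).

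**Figure D3:**
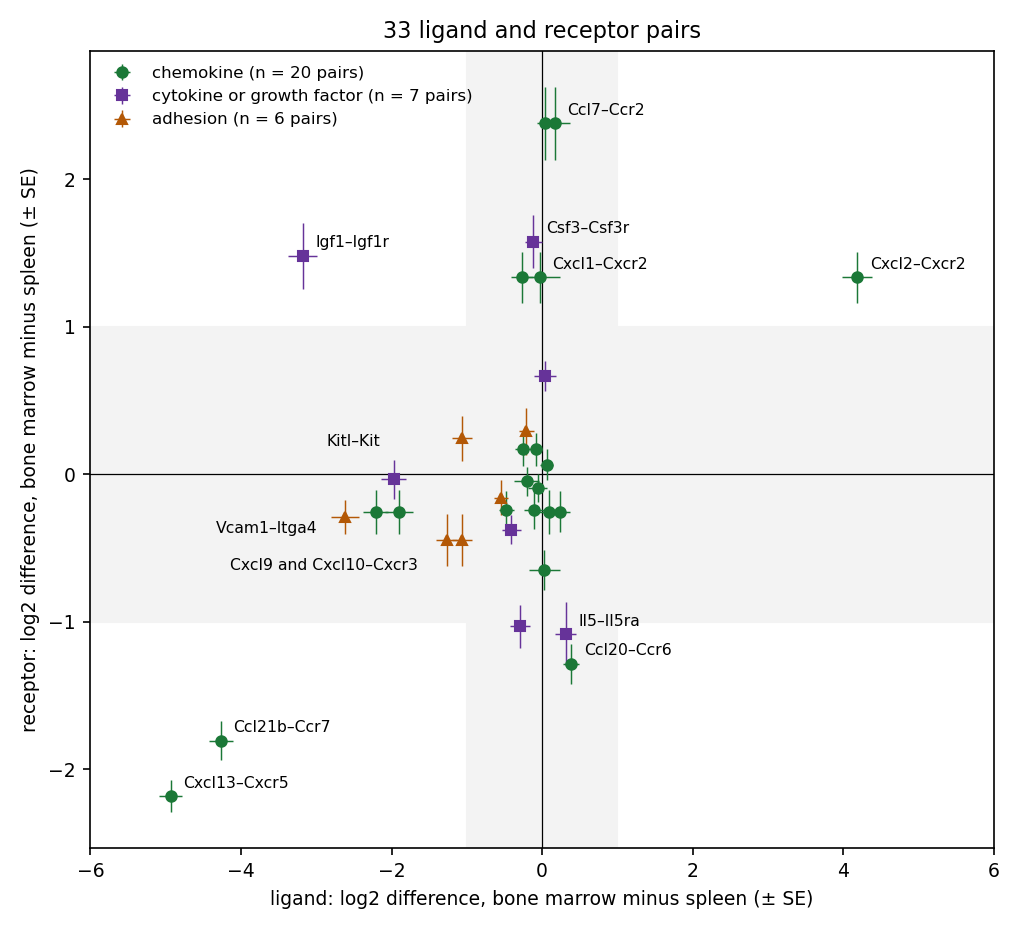
Log2 difference, bone marrow minus spleen, of the receptor gene (vertical axis) against that of the ligand gene (horizontal axis) for 33 pairs, with SE bars and marker shapes for chemokine, cytokine or growth factor, and adhesion pairs. The shaded bands cover differences under 1 in size; 3 pairs lie outside both bands on the diagonal corners and Igf1 with Igf1r lies at upper left.

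Of 6 measured B cell markers, Cd74, Cd83, Fcer2a and Cxcr5 were lower in bone marrow and 2 were not called, against 8.55% of all genes called lower. The list's median difference was -2.15, with summed levels of 6947 to 8494 in bone marrow and 18161 to 19823 in spleen. Cd74, the invariant chain of antigen presentation, read 1805, 1333 and 1105 in bone marrow and 7769, 9636 and 7391 in spleen (-2.57 ± 0.20, limma adjusted p = 1.67e-10). Cd83, found on activated B cells and dendritic cells, read 221, 287 and 216 in bone marrow and 1952, 1737 and 1905 in spleen (-2.96 ± 0.18, limma adjusted p = 1.73e-12). Fcer2a, the low-affinity IgE receptor CD23 of mature B cells, read 684, 503 and 352 in bone marrow and 2933, 1608 and 2141 in spleen (-2.13 ± 0.19, limma adjusted p = 1.66e-09). The fourth was Cxcr5. None of the 4 overlapped between tissues, as held for all 66 called genes and for 45.5% of all genes. Spleen had the highest mean of the 9 tissues for Cd74 and Cxcr5, for Cd74 above lymph node by less than the SD of either tissue.

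Cd72 and Cd22, both inhibitory co-receptors of B cells, were not called. Cd72 had a difference of -0.68 ± 0.27 (limma adjusted p = 0.0599). The chosen Cd22 probe set averaged 5001 ± 369 in bone marrow and 5423 ± 627 in spleen, and it read high in every tissue, from a mean of 2086 ± 195 in liver upward. The second Cd22 probe set averaged 130 in bone marrow and 838 in spleen, a difference of -2.69, and with probe sets averaged 5 of the 6 markers were lower. No precursor B cell marker of the list was measured here, so that the immature B cells of marrow were not assessed.

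The lists of T cell, natural killer cell and dendritic cell markers held 2 of 4, 1 of 5 and 1 of 7 lower genes, against 8.55% of all genes, and counts of 1 in lists this short lie near that share. Of 4 T cell markers, Ccr7 and Il7r were lower. Il7r, the interleukin 7 receptor, read 817, 682 and 734 in bone marrow and 1720.3, 1196 and 1704 in spleen (-1.03 ± 0.14, limma adjusted p = 2.49e-06), near the size threshold, and it was not called with quantile normalization (-0.66), median centring (-0.90), or without bone marrow replicate 2 (-0.97), spleen replicate 1 (-0.94) or spleen replicate 3 (-0.95). Cd27 and Ccr9 had -0.57 ± 0.17 and -0.26 ± 0.14. Of 5 natural killer cell markers, Klrd1, the CD94 lectin-like receptor, was lower (-1.15 ± 0.12, limma adjusted p = 4.02e-08), a call lost with quantile normalization (-0.86). Il2rb, Klrk1, Klrc1 and Klrg1 were not called (-0.68, -0.59, 0.21 and -0.02), and the other 2 Klrc1 probe sets had the opposite sign (-1.02 and -0.47). Of 7 dendritic cell markers, Itgax, the integrin CD11c, was lower, with 434, 451 and 559 in bone marrow and 1405, 1205 and 1201 in spleen (-1.40 ± 0.10, limma adjusted p = 2.33e-11). It was 4.04-fold lower, against 2.65-fold with the chosen probe set, when its probe sets were averaged. Among the uncalled dendritic cell markers Clec10a had 0.85, and was called higher with quantile normalization (1.003), while Ly75 had 0.72, Xcr1 -0.65 and Flt3 -0.38.

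Markers of precursors and of the red cell and platelet lineages were few on the array. Cd34 averaged 224 ± 60.0 in bone marrow and 168 ± 3.65 in spleen (0.39 ± 0.18, limma adjusted p = 0.109), and with Kit it made up the measured progenitor list, which held no call. Epor, the erythropoietin receptor and the 1 measured erythroid marker, read 847, 883 and 723 in bone marrow and 505, 438 and 613 in spleen (0.66 ± 0.10, limma adjusted p = 7.98e-06), passing the adjusted p under the size threshold. Of 4 megakaryocyte and platelet markers, 1 was lower, a count near the share of 8.55% over all genes. It was Pf4, platelet factor 4, with 781, 854 and 839 in bone marrow and 2468, 1800.0 and 1412 in spleen (-1.16 ± 0.20, limma adjusted p = 5.23e-05). Its second probe set differed by -0.05, and the call was lost with quantile normalization (-0.81), with probe sets averaged (-0.60) and without spleen replicate 1 (-0.95). Itga2b, Itgb3 and Selp, which platelets and megakaryocytes carry, had 0.05, -0.06 and -0.21. No bone or osteoblast marker of the list was measured, and no call was made among 2 plasma cell and 2 mast cell and basophil markers, of which 1 each had an unadjusted p under 0.05.

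Of 7 measured fibroblast and stromal markers, Bgn, Dcn, Fmod, Col14a1 and Pdgfra were lower in bone marrow and 2 were not called, against 8.55% of all genes called lower. The list's median difference was -2.28, with summed levels of 1105 to 1151 in bone marrow and 6084 to 6656 in spleen. Bgn, the small leucine-rich proteoglycan biglycan, read 219.5, 221 and 243 in bone marrow and 2842, 3135 and 2727 in spleen (12.7-fold lower, -3.67 ± 0.20, limma adjusted p = 3.8e-13). Dcn, decorin of the same family, read 265, 248 and 259 in bone marrow and 1936, 1468 and 1881 in spleen (-2.76 ± 0.21, limma adjusted p = 1.37e-10). Fmod, fibromodulin, read 87.6, 85.3 and 97.2 in bone marrow and 564, 459 and 429 in spleen (-2.42 ± 0.16, limma adjusted p = 1.05e-11). These 3 genes were also the lower ones among 21 proteoglycan core proteins, of which Gpc1 was the 1 higher gene and 17 were not called (median difference -0.0018). Both counts lie near the shares over all genes, 8.55% lower and 2.97% higher. Srgn, serglycin of blood cell granules, read 4410.1, 5903 and 5084 in bone marrow and 5192, 4645 and 5019 in spleen, with overlapping arrays (0.04 ± 0.21, limma adjusted p = 0.894).

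Col14a1, a fibril-associated collagen, and Pdgfra, a growth factor receptor of mesenchymal cells, were the other lower stromal markers, at -2.28 ± 0.17 and -1.45 ± 0.12. Pdgfra was dim in both tissues, with 48.5, 37.8 and 43.6 in bone marrow and 119.6, 109 and 125 in spleen, and with a floor of 64 the list held 4 lower genes. Pdgfrb and Lum were not called (-0.90 ± 0.12 and 0.34 ± 0.30). Fbln5, the elastic fibre protein fibulin-5, read 130.4, 95.6 and 98.1 in bone marrow and 762, 575 and 534 in spleen (-2.53 ± 0.19, limma adjusted p = 9.44e-11). For Bgn, Dcn, Fmod, Col14a1, Pdgfra and Fbln5 bone marrow had the lowest mean of the 9 tissues. Osmr, the oncostatin M receptor, and Igfbp5, which binds insulin-like growth factors, both named after their values were seen, had -2.16 ± 0.17 and -1.43 ± 0.19.

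Integrins and adhesion molecules were called in 1 direction. Of 23 measured, 9 were lower, against 8.55% of all genes, and none was higher (median difference -0.45). Vcam1, which vascular and stromal cells and red pulp macrophages use to bind leukocytes, read 738, 473 and 949 in bone marrow and 4711, 3862 and 4259 in spleen (-2.62 ± 0.19, limma adjusted p = 3.87e-11), and its second probe set had -3.11. Its ligand on leukocytes holds the integrin chain Itga4, which read 193, 184 and 193 in bone marrow and 214, 246 and 238 in spleen (-0.29 ± 0.12, limma adjusted p = 0.0569). A second Itga4 probe set averaged 56.5 in bone marrow and 114 in spleen (-1.002). Cd2 and Cd48, which bind each other on lymphocytes and other blood cells, had -1.50 ± 0.15 and -1.44 ± 0.20. Icam2 and Pecam1, adhesion molecules of endothelium and leukocytes, had -1.27 ± 0.14 and -1.13 ± 0.16, and were the 2 lower genes among 6 endothelial markers. Pecam1 lost its call with median centring (-0.997), and both genes lost it with quantile normalization (Icam2 -0.88, Pecam1 -0.99), which left no call on the endothelial list. The other lower genes were Itgax and, named after their values were seen, Itgb1 (-1.08), Icam1 (-1.06) and Itga6 (-1.02). These last 3 were called with neither quantile normalization nor median centring, Icam1 and Itgb1 also not without bone marrow replicate 1, and Itga6 not without bone marrow replicate 3 (-0.97) or spleen replicate 1 (-0.84). A second Icam1 probe set averaged 168 in bone marrow and 721 in spleen, a difference of -2.10. With quantile normalization 3 of the 23 genes were called lower, Cd48 (-0.99) not among them, and with median centring 5.

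Across chemokines, their receptors and adhesion molecules together, 27 of 68 genes were called (39.7%), against 11.5% of all genes. The other immune lists, given below, were not in this pool, and the lists were chosen with earlier results of these data known. With quantile normalization 6 chemokines and 3 adhesion molecules were called lower, against 7 and 9 with values as deposited. Across the growth factor lists, which hold the transforming growth factor beta superfamily, fibroblast growth factors and Wnt genes, 0 of 74 genes were called by limma. There 9 passed the adjusted p with differences under the size threshold, and 20 had an unadjusted p under 0.05. The sizes had a median of 0.35 in the first set and 0.15 in the second, against 0.23 over all genes. The 26 fibroblast growth factor and receptor genes summed to 6330 to 6761 on bone marrow arrays and 6370 to 6685 on spleen arrays. The 21 Wnt and frizzled genes summed to 5620 to 5913 and 5918 to 6323. Most genes of both lists thus lay under 606, the 95th percentile of the human probe sets, and equal expression is not shown. No call was made by limma among 15 interleukins, of which 7 had an unadjusted p under 0.05. The same held for the 17 listed genes of the tumour necrosis factor family, of which 9 did. For both of these lists the lack of a call lies near the share of 11.5% over all genes. Tnfrsf19, a receptor of the tumour necrosis factor family called higher above, was not on the list of that family. The last list held Tnfsf13b, the B cell survival factor BAFF, which read 477, 569.9 and 566 in bone marrow and 289, 272 and 256 in spleen, just under the size threshold (0.98 ± 0.12, limma adjusted p = 7.25e-07). Tnfsf13b was called higher under 5 alternatives: quantile normalization (1.053), median centring (1.11), array weights (1.02), and without bone marrow replicate 1 (1.06) or spleen replicate 1 (1.02). Of 17 interleukin and colony-stimulating factor receptors, Csf3r was higher and Il7r and Il5ra, the receptor chain for interleukin 5, were lower, Il5ra at -1.08 ± 0.21 (limma adjusted p = 0.000251). These counts lie near the shares over all genes, 2.97% higher and 8.55% lower. Il5ra lost its call with quantile normalization (-0.76), with median centring (-0.95) and without bone marrow replicate 1 (-0.98).

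**Figure D4:**
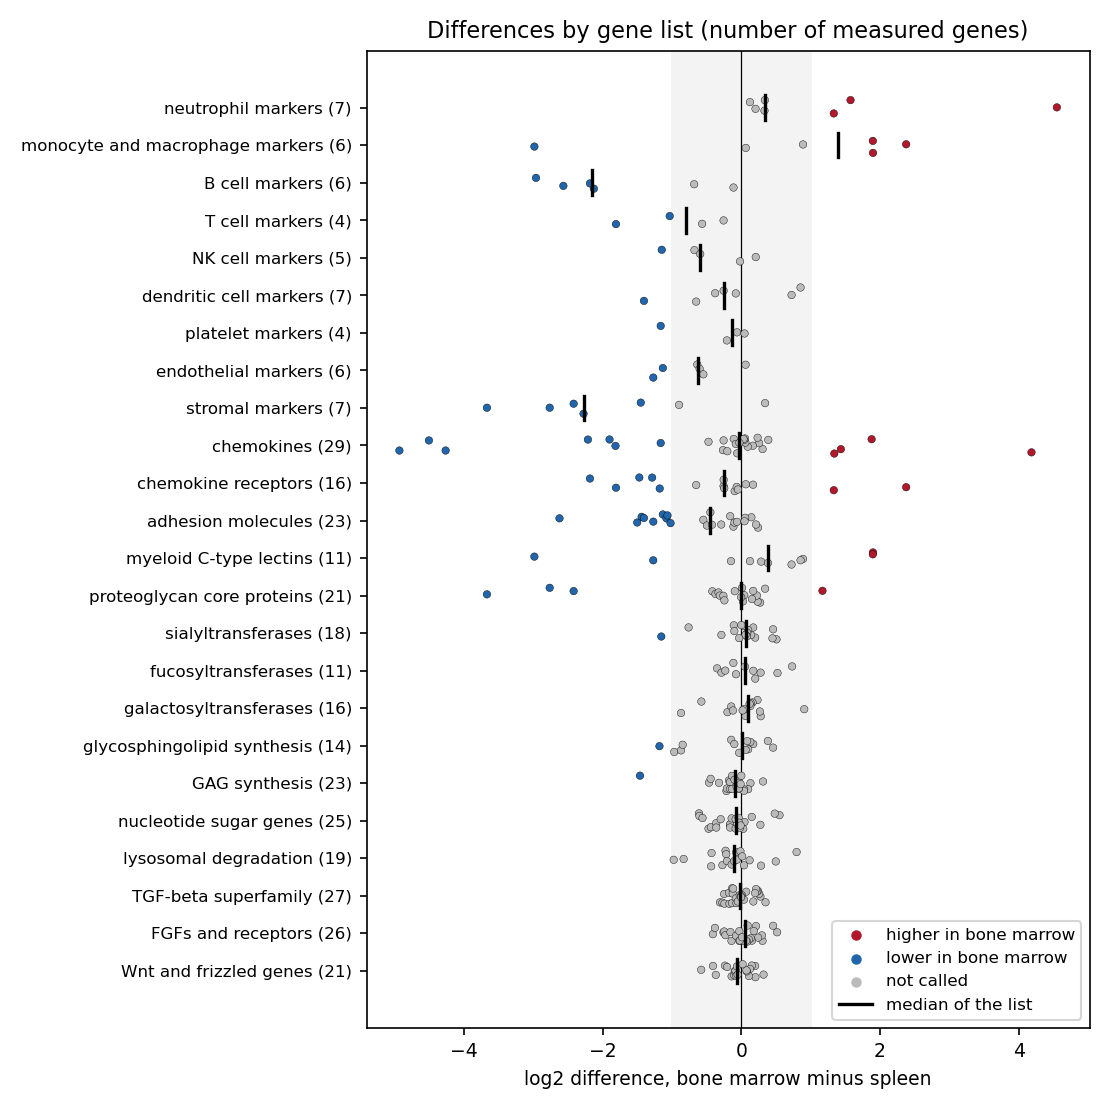
Log2 differences, bone marrow minus spleen, of the measured genes of 24 lists, 1 point per gene with the vertical bar at the list's median and shading over differences under 1 in size. Calls cluster in marker, chemokine and adhesion lists, and the lists of glycan enzymes and growth factors lie mostly within the shading.

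Lectin genes were called in both directions. Over all genes, 2.97% were called higher and 8.55% lower. Of 11 myeloid C-type lectin receptors, Clec7a and Clec4a2 were higher and Mrc1 and Cd209b were lower. Cd209b, SIGN-R1 of marginal zone and lymph node macrophages, read 176, 179 and 207 in bone marrow and 573, 432 and 370.2 in spleen (-1.27 ± 0.14, limma adjusted p = 6e-08). With Vcam1 it made up the lower genes among 4 red pulp and marginal zone markers, and Siglec1 and Cd209a were not called (-0.23 and -0.15). Siglec1, sialoadhesin of marginal zone macrophages, lay under the human median in both tissues. Of 4 galectins, Lgals8 was lower (-1.18 ± 0.16, limma adjusted p = 1.32e-06), and its call, the 1 call of the list, was lost with quantile normalization (-0.86). A count of 1 in a list this short lies near the share of 8.55%. No Siglec of 6 and none of 14 selectin-related genes was called by limma, 1 and 6 of them having an unadjusted p under 0.05. With 11.5% of all genes called, the lack of a call in lists this short lies near that share. With probe sets averaged, Cd22 was the 1 Siglec called lower (-1.40).

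The list of soluble lectins held 4 lower genes of 7, against 8.55% of all genes. Of the 4 lower genes, 3 are the Reg genes, which encode secreted lectin-like proteins known as abundant products of the exocrine pancreas. The fourth was Thbd, thrombomodulin, an anticoagulant receptor on endothelium (-1.30 ± 0.14). Reg1 had the largest difference of all 573 genes, with 200.3, 226 and 203 in bone marrow and 6658, 9125 and 11465 in spleen (42.3-fold lower, -5.40 ± 0.38, limma adjusted p = 3.74e-11). Reg2 read 246, 251 and 248 in bone marrow and 583, 4194 and 4009 in spleen (-3.11 ± 0.40), and Reg3b read 141, 144 and 143 in bone marrow and 167, 1197 and 1138 in spleen (-2.09 ± 0.41). Spleen replicate 1 lay far under the other spleen arrays for Reg2 and Reg3b. Without it Reg2 was 16.5-fold lower, against 8.63-fold with all arrays, and Reg3b 8.17-fold lower, against 4.27-fold.

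Spleen had the highest mean of the 9 tissues for all 3 Reg genes, and for Reg1 the other tissues averaged between 169 ± 27.5 in brain and 469 ± 499 in kidney. These 3 were the measured genes of an exocrine pancreas list of 11, whose summed level was 587 to 622 in bone marrow and 7408 to 16611 in spleen. Whether pancreas tissue came with the spleen samples was not tested.

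Few enzymes that build, modify or degrade glycans were called. Of 143 measured genes in 13 enzyme lists, 4 were called (2.8%, against 11.5% of all genes), all of them lower, and a further 33 passed the adjusted p under the size threshold, 11 upward and 22 downward. The size of the difference had a median of 0.18, against 0.23 over all genes. St6gal1, which adds the alpha2,6-linked sialic acid that CD22 binds, read 443, 373 and 382 in bone marrow and 867, 859.9 and 932 in spleen (-1.15 ± 0.14, limma adjusted p = 4.08e-07). The groups did not overlap, and St6gal1 was the 1 called gene of 18 sialyltransferases, a count near the 8.55% of all genes called lower. Its other probe sets had -0.94 and -0.34, and it was not called with quantile normalization (-0.82) or with probe sets averaged (-0.81).

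B4galnt1, the GM2/GD2 synthase of ganglioside synthesis, read 550.0, 499 and 697 in bone marrow and 1039.9, 1518 and 1411 in spleen (-1.18 ± 0.13, limma adjusted p = 1.28e-07) and was the 1 called gene of 14 in glycosphingolipid synthesis. Ugcg, the glucosylceramide synthase at the head of that pathway, read 417, 473 and 418 in bone marrow and 829, 846 and 877 in spleen, just under the size threshold (-0.97 ± 0.12, limma adjusted p = 7.15e-07), and it was called lower without bone marrow replicate 2 (-1.03). Man2a1, Golgi alpha-mannosidase II of N-glycan trimming, read 346, 365 and 429 in bone marrow and 870.2, 888 and 863 in spleen (-1.21 ± 0.15, limma adjusted p = 3.27e-07). Hs6st2, a heparan sulfate 6-O-sulfotransferase, averaged 62.7 ± 5.12 in bone marrow and 178 ± 56.5 in spleen, both below the human median (-1.46 ± 0.17, limma adjusted p = 1.86e-07), and was the 1 called gene of 23 in heparan and chondroitin sulfate synthesis. The counts of 1 of 14 and 1 of 23 lie near the share of 8.55% of all genes called lower. B4galnt1 and Man2a1 lost their calls with quantile normalization (-0.86 and -0.89).

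None of 11 fucosyltransferases was called by limma, and 4 had an unadjusted p under 0.05. Fut7, which completes sialyl Lewis x on the selectin ligands of leukocytes, read 386, 433 and 536 in bone marrow and 304, 251 and 256 in spleen, without overlap (0.73 ± 0.12, limma adjusted p = 3.24e-05), and Selplg, which encodes a protein that carries those glycans, had 0.29 ± 0.16 (limma adjusted p = 0.173). Among the sialyltransferases under the size threshold, St8sia3 had 0.51, St3gal5, the GM3 synthase, 0.46, St3gal6 0.45 and St6galnac2 -0.76. No call was made among 16 galactosyltransferases and poly-N-acetyllactosamine enzymes, 25 genes of nucleotide sugar synthesis and transport, 19 of lysosomal glycan degradation, 6 polypeptide GalNAc-transferases, 4 O-glycan core enzymes or 5 N-glycan branching enzymes. For the fucosyltransferases, the galactosyltransferase list and the last 3 lists, which are short, the lack of a call lies near the share of 11.5% over all genes. Under some alternatives 1 gene of the galactosyltransferase list and 1 of the lysosomal list were called, and both are named here after their values were seen. B3galt1, a galactosyltransferase, had 0.91 ± 0.16 and was called higher with median centring (1.04) and without bone marrow replicate 1 (1.04). Gm2a, the GM2 activator protein of ganglioside breakdown, had -0.98 ± 0.28 and was called lower with array weights (-1.21), without bone marrow replicate 3 (-1.29) and without spleen replicate 1 (-1.21). Of the 99 genes on glycan lists without a call, the fucosyltransferases included, 27 passed the adjusted p and 36 had an unadjusted p under 0.05. Nagk, the N-acetylglucosamine kinase, is on none of these lists and was named after its values were seen: it averaged 207 ± 48.1 in bone marrow and 487 ± 26.8 in spleen (-1.25 ± 0.18).

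Among bright genes, those whose mean over the 6 arrays lay in the top 25% of genes, the 5 with the smallest differences were Acvr2a, Gfra3, Fzd7, Ntrk3 and Mbl2, at 0.01, -0.02, 0.02, -0.02 and 0.02. They encode an activin receptor, a co-receptor for neurotrophic factors, a Wnt receptor, a neurotrophin receptor and a mannose-binding lectin of plasma. Acvr2a read 671, 551 and 503 in bone marrow and 603, 513 and 595 in spleen, mostly under 606, the 95th percentile of the human probe sets. Second probe sets of Gfra3, Fzd7 and Ntrk3 differed by -0.0037, 0.40 and 0.08. That of Fzd7 averaged 59.8 in bone marrow and 45.2 in spleen, so that equal expression is not shown. In all 5 genes the arrays of the 2 tissues overlapped, which picking the smallest differences all but ensures.

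Set beside the rest of the series, bone marrow and spleen had fewer calls between them than most pairs of tissues. Their 66 calls were the 7th fewest of 36 tissue pairs, which ran from 24 calls (4.19%) between lymph node and spleen to 133 (23.2%) between brain and lymph node. The pair of bone marrow and thymus had 48 calls and that of bone marrow and lymph node 71. Spleen and thymus had 45, and lymph node and thymus 51. Among the pairs of these lymphoid organs, only bone marrow with lymph node had more calls than bone marrow with spleen. These pairs share arrays, and no test between them was made. Of the 17 higher genes, 14 had their highest mean of the 9 tissues in bone marrow, the others being Igf1r, Ugt1a6a and Tnfrsf19. Of the 49 lower genes, 18 had their highest mean in lymph node, 15 in spleen and 11 in lung, and 12 had their lowest mean in bone marrow. Bgn, for instance, averaged 8417 ± 174 in lung, and Kitl 2318 ± 95.2.

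**Figure D5:**
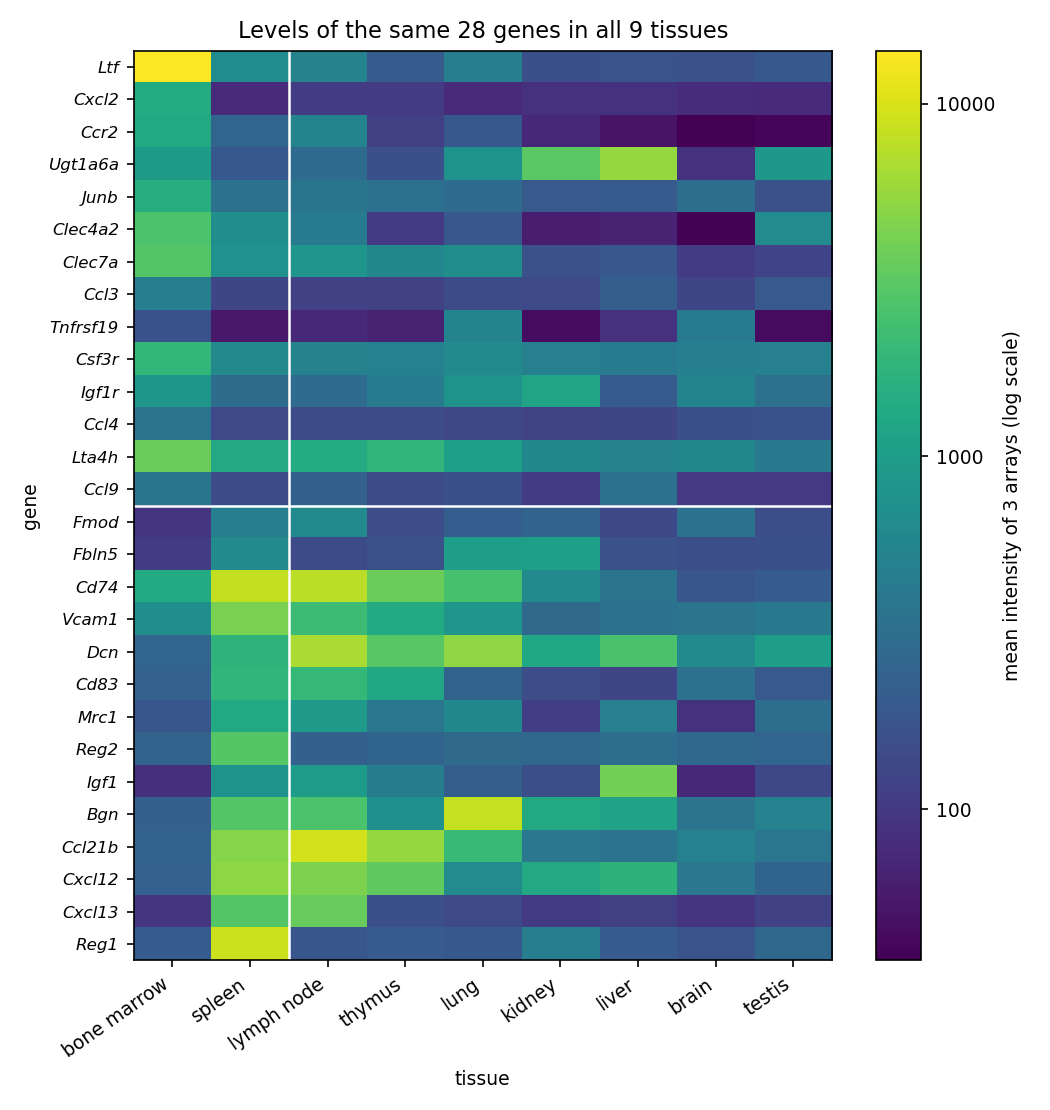
Mean intensity of 3 arrays (colour, logarithmic scale) in the 9 tissues for the 14 higher genes (above the horizontal line) and 14 lower genes (below it) with the largest differences between bone marrow and spleen. Most higher genes are brightest in the bone marrow column, and several lower genes are as bright in lymph node, thymus or lung as in spleen.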

How the data were processed

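The deposited table gives a linear intensity for each of 1813 probe sets on each of 27 arrays. How the authors summarised, corrected and scaled these intensities is not given in the sources used here, and values were kept as deposited. Gene names came from the platform annotation and were matched by gene identifier to RefSeq (GRCm38.p6). The 702 mouse probe sets gave 573 genes, each read from its probe set with the highest mean over all arrays. Human probe sets (839) and controls stayed out of the tests. Intensities under 16 were raised to 16 and log2 taken. No 2 arrays were identical.

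The model was fitted with limma 3.58.1 (R 4.3.3) on all 27 arrays, with a coefficient for each tissue, so that all tissues share 1 estimate of the spread (lmFit, a bone marrow minus spleen contrast and eBayes). Benjamini-Hochberg adjustment ran over the 573 genes, and every adjusted p in the text is from this fit unless another setting is named. A called gene has an adjusted p under 0.05 and a difference of at least 1. The number of arrays limits the precision. The comparison, the 49 gene lists and the rule for names were chosen with earlier results of these data known. The rule named the 14 largest called differences in each direction, up to 4 called genes per list, the 5 smallest differences among bright genes and every measured cell type marker, called or not. Deviations from the tissue mean correlated at 0.00, 0.03 and -0.23 between same-numbered bone marrow and spleen arrays. Arrays of unlike number gave -0.18 to 0.21. With 3 arrays a tissue, these values cannot tell whether same-numbered arrays share an animal. The script was tested on simulated data. The alternatives tried were median centring, quantile normalization, leaving out the dimmest genes, a floor of 64, an offset of 16, averaged probe sets, a robust prior with trend in eBayes, array weights, the 6 arrays alone, the title number as a block, and leaving out each array.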

Additional observations from a re-analysis of the deposited data

How the results depend on the processing

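The higher count was 17 with values as deposited and 10 when the dimmest genes were left out, where 382 genes were tested and the 10 were all among the 17. Under the other settings it was 17 to 20, and leaving out 1 array in turn gave 17 to 20. The lower count of 49 was 35 with quantile normalization, 36 without the dimmest genes and 43 with median centring, and 46 to 50 when 1 array was left out. Median centring moved the median difference over all genes to 0.08. The title number as a replicate block gave 17 higher and 49 lower genes. Whether same-numbered arrays share an animal is not known. Of 97 genes that the rule named, uncalled cell type markers included, 81 kept their call or lack of one under each of the 16 alternatives in which they were tested, and 16 did not. With quantile normalization, among others, Klrd1 (-0.86), Icam2 (-0.88), Lgals8 (-0.86), Il5ra (-0.76), Pecam1 (-0.99) and Cd48 (-0.99) fell under the size threshold. Cd22 with probe sets averaged (-1.40), Clec10a with quantile normalization (1.003) and Clec4e under 3 alternatives gained a call. None of the 53 called genes among them changed sign. The causes of these changes were not tested. Of the 18 further probe sets of called genes, all 18 had the sign of the chosen one and 12 had a size of at least 1. Signal over background limits the folds of dim genes, and 3 arrays a tissue limit small differences.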
